A study of Mus musculus with 3 samples.

Results

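The genes described here are those of mouse CD molecules whose symbol is Cd followed by a number, the cluster of differentiation names given to leukocyte surface antigens as antibodies against them were grouped. They were chosen by the form of the symbol, and some were then set aside by name, among them CD3 chains, tetraspanins and checkpoint ligands. Earlier results of these data were known when this choice was made. Of 16129 genes in the deposited table, 77 symbols had this form, 20 of them were set aside and 57 were kept. RNA was sequenced from type 2 innate lymphoid cells (ILC2s) that flow cytometry had sorted out of lung tissue, and every mouse was wild type and had received IL-33 in vivo. All 3 libraries belong to this 1 group, so no effect of IL-33 and no difference from another cell type could be measured. Whether each library is a separate animal is not stated, and the p-values and SDs given below may therefore measure technical spread alone. The sources used here do not state the antibodies and gates of the sort, the dose of IL-33 or the age of the mice.

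ILC2s are lymphocytes without rearranged antigen receptors that answer epithelial alarmins such as IL-33 with type 2 cytokines. A CD number says that a molecule was recognised on the surface of some leukocyte, not what it does, so the set holds receptors, ligands, adhesion molecules, coreceptors and scavenger receptors. Sorting of innate lymphoid cells commonly uses such molecules in both directions, as markers of lymphocytes and as lineage markers that the cells should lack. A few symbols were given by likeness or name only. Cd5l encodes a secreted protein of macrophages, Cd68 is mainly a lysosomal protein, and Cd99l2, Cd163l1 and Cd55b were named after their relatives.

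The libraries held between 19883728 and 19976129 estimated reads. All 14 ILC2 markers examined, among them Gata3, Il1rl1 and Il7r, reached at least 1 TPM (a transcript level corrected for gene length and library depth) in each library, and their summed level was 10139 to 10443 TPM. Lists of other cell types summed to less. The dendritic cell list had 6 of 10 genes detected with a sum of 215 to 221 TPM, most of it from H2-Aa and H2-Ab1. The epithelial list had 6 of 8 genes detected with a sum of 55 to 61 TPM. Among them were Cdh1 at 23.3, Scgb1a1 at 15.3 and Sftpc at 9.40 TPM. Of 6 listed B cell genes 0 were detected and their sum was 0.67 to 1.18 TPM. Of 15 listed macrophage and monocyte genes 9 were detected, and their sum was 605 TPM in replicate 1, 585 in replicate 2 and 741 in replicate 3. Chil3 and Ctss, at 375 and 198 TPM, carried most of this sum, and the median of the list was 1.72 TPM. The T cell list had 5 of 5 listed genes detected with a sum of 116 to 125 TPM, most of it from Bcl11b and Lef1, of which ILC2s also express Bcl11b. The receptor constant genes Trac, Trbc1, Trbc2 and Trdc were not analysed here. In cells sorted in bulk, a low level can come from few cells with much of an RNA or from many cells with little, and these cannot be told apart.

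A smaller share of the CD genes than of all listed genes was detected, while the shares at 100 TPM or more were close. Detection was set at 1 TPM in each library, which 29 of the 57 met (50.9%), beside 67.3% of all listed genes. A mean of at least 10 TPM was reached by 15 (26.3%), beside 51.2% of all genes, and a mean of at least 100 TPM by 7 (12.3%), beside 10.3%. Below 1 TPM in each library were 24 (42.1%), beside 30.0% of all genes, and the remaining 4, Cd14, Cd79a, Cd163l1 and Cd8a, passed 1 TPM in some libraries only. The median of the mean levels was 1.5 TPM, against 11.2 TPM over all listed genes. Together the 57 genes took 2477, 2473 and 2465 TPM in replicates 1, 2 and 3, and the 4 highest, Cd99, Cd44, Cd164 and Cd48, held 64.3% to 65.7% of that. The 7 genes at 100 TPM or more, this total and this share all include Cd99, whose TPM is uncertain for the reason given below. The order of levels was stable where levels were high. Among the 14 genes with a mean of at least 20 TPM no gene moved by more than 1 rank between libraries. Over the 27 pairs of neighbours in the order that were both detected, the ranges of the 3 libraries stayed apart in 13 and overlapped in 14. The overlapping neighbours at the top were Cd72 with Cd200r1, Cd83 with Cd27, and Cd79b with Cd99l2, whose order is therefore not resolved.

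**Figure D1:**
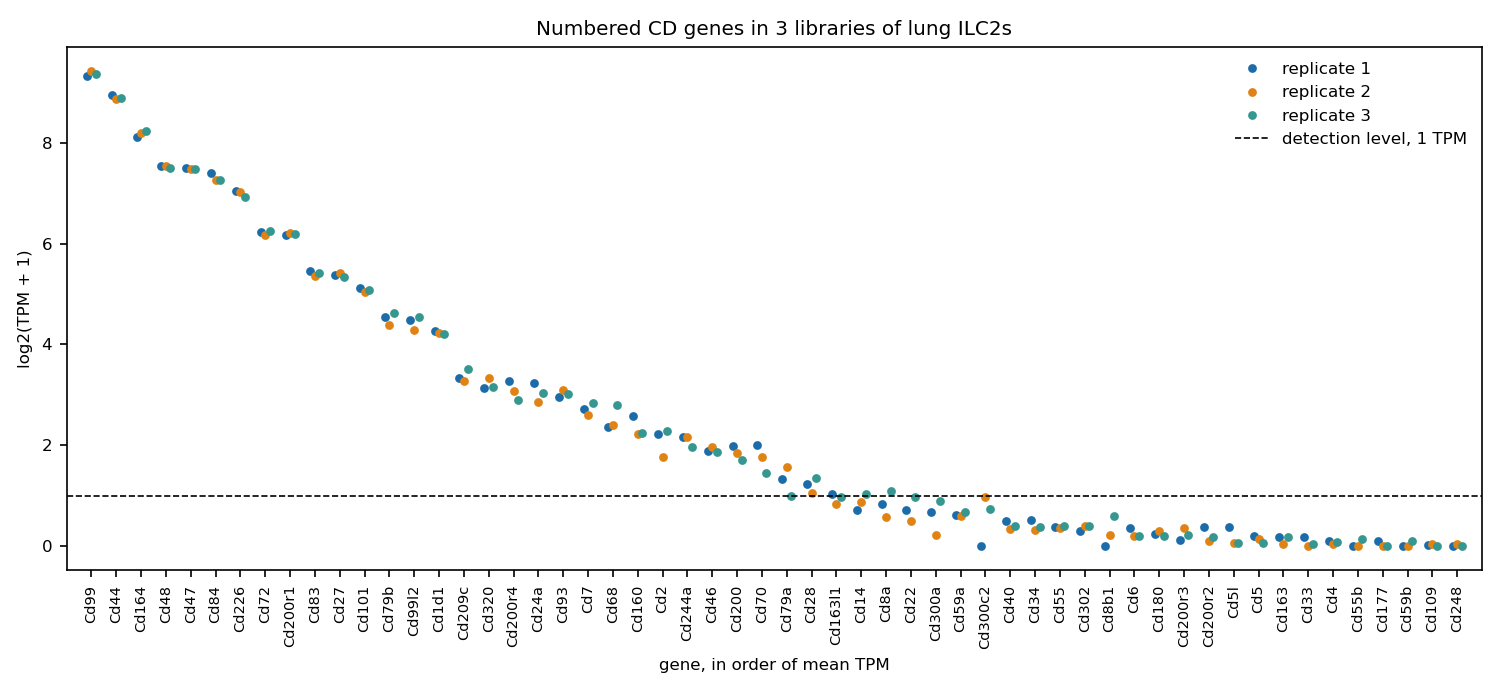
Level of 56 of the 57 numbered CD genes as log2(TPM + 1), with 1 point per library and genes in order of mean TPM. The dashed line is the detection level of 1 TPM, and the 7 genes at the left have means of at least 100 TPM while 23 of the genes plotted lie below the line in every library.

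Cd99, an adhesion molecule of leukocytes and endothelium, headed the list by TPM, and its place depended on the length by which its reads were divided. It stood at 641, 686 and 659.7 TPM, a mean of 662 ± 22.5 (SD, n = 3 libraries, as for all errors below). No other CD gene reached this range in any library. The deposited FPKM and estimated counts together imply the length used for each gene, which was 157 bases for Cd99 in each library. None of the 9739 genes with a mean of at least 100 estimated reads had a shorter one, and their median was 2900 bases. RefSeq gives the Cd99 gene (Entrez gene 673094) a span of 1428 bases on a chromosome 4 sequence, and GENCODE M21 holds no gene matched to it. On the CPM scale, which scales reads to the library total with no division by length, Cd99 was at 49.8 ± 1.52 and ranked 10 of 57. Cd44 ranked the highest on that scale, at 994 ± 40.8 CPM. Its TPM is therefore uncertain as a level, although 970 to 1024 reads per library were assigned to it.

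**Figure D2:**
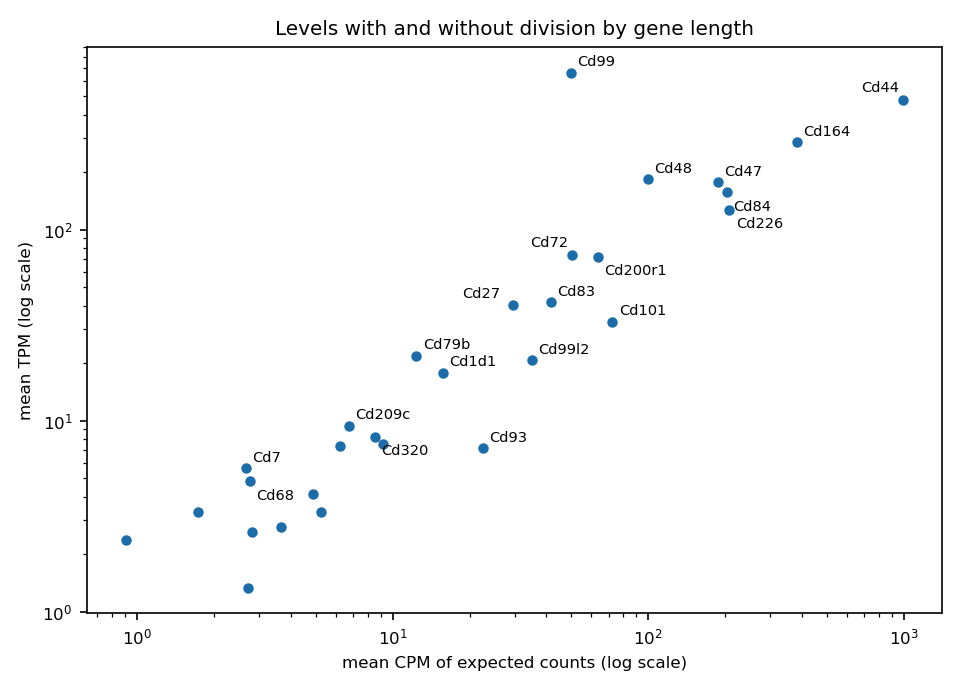
Mean CPM of estimated reads (x axis, log scale) against mean TPM (y axis, log scale) of the 29 detected CD genes, 1 point per gene. Cd99, with 49.8 CPM and 662 TPM, lies above the band of the other genes, in which Cd44 is highest.

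Adhesion molecules and sialomucins summed to 1461 ± 13.8 TPM, of which the uncertain level of Cd99 made up 662. Cd44, the hyaluronan receptor of activated and tissue-resident lymphocytes, stood at 493, 463 and 471 TPM (476 ± 15.4), which is above 98.3% of all listed genes. The gene (12505) lies on chromosome 2 from 102811141 to 102901669 in GRCm38.p6. Its values were those of the most deeply read CD gene, with 19201 to 20768 estimated reads per library. Cd164, an endosomal and surface sialomucin with a role in cell adhesion, was at 274.8, 291 and 297 TPM (288 ± 11.5), below Cd44 and above every other CD gene except Cd99 in each library. Cd99l2, the relative of Cd99 on the X chromosome, stood at 21.3, 18.4 and 22.3 TPM, with replicate 2 the lowest. Cd24a, a small glycosylated antigen of B cell precursors and epithelia, was at 8.45, 6.31 and 7.21 TPM and Cd93, a lectin-like receptor of endothelium and myeloid cells, at 7.14 ± 0.390. The endothelial marker list had 2 of 8 genes detected and a sum of 79.6 to 84.3 TPM, of which Pecam1 made up nearly all, and its part in the Cd93 level was not tested. Cd34, a sialomucin of progenitors and vessels, had 6 to 10 reads per library (0.333 ± 0.0874 TPM). Cd109 and Cd248, a surface antigen with a GPI anchor and a stromal antigen, had at most 2 reads in any library. Of the 9 genes of this group 6 were detected.

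The CD2 and SLAM family, immunoglobulin-like receptors that bind one another or themselves between lymphocytes, held 2 high and 2 low genes. All 4 members in the set were detected. Cd48, the GPI-anchored ligand of CD244 and, in mice, of CD2, stood at 185, 185 and 181 TPM (183 ± 2.39). Cd84, a receptor that binds itself, was at 169, 151 and 153 TPM (158 ± 9.48), with replicate 1 the highest. These values lay below those of Cd48 in every library. Both partners of CD48 were low. Cd244a, a receptor best known from natural killer cells, was at 3.49, 3.48 and 2.94 TPM (3.30 ± 0.315), and Cd2, an adhesion receptor of T and natural killer cells, was at 3.69, 2.40 and 3.85 TPM (3.31 ± 0.795). The levels of Cd2 and Cd244a overlapped, and Cd2 rested on 25 to 40 reads per library.

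Cd2 lies on chromosome 3, while Cd244a, Cd48 and Cd84 share a cluster on chromosome 1 with 4 further family genes, whose starts span 359 kb, in the order Cd244a (start 171558718), Ly9, Slamf7, Cd48 (171681245), Slamf1, Cd84 (171839697) and Slamf6. High and low genes alternated along this order. Ly9, whose product binds itself, was at 43.1 ± 1.22 TPM, while Slamf7, Slamf1 and Slamf6 stood at 0.633 ± 0.12, 0.550 ± 0.256 and 0.717 ± 0.38. Their intracellular adaptors were low as well, with Sh2d1a, which encodes SAP, at 1.83 ± 0.297 TPM and Sh2d1b1, which encodes EAT-2, at 0.153 ± 0.0874. Because these neighbours differ so widely in level, the 250 bases before an annotated start are printed for the 3 CD genes of the cluster. For Cd84 this start is the one given above. For Cd244a and Cd48 the whole window lies inside the gene, downstream of the start given above. The windows are from RefSeq (GRCm38.p6) and are read 5′ to 3′ on the plus strand. They run from 171558943 to 171559192 for Cd244a, from 171681742 to 171681991 for Cd48 and from 171839447 to 171839696 for Cd84. Capitals mark the RUNX word TGTGGT.
Cd244a: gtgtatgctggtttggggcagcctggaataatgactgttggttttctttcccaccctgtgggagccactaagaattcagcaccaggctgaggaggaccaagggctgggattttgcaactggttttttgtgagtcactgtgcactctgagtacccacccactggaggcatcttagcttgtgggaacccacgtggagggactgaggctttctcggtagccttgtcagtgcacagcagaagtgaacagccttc
Cd48: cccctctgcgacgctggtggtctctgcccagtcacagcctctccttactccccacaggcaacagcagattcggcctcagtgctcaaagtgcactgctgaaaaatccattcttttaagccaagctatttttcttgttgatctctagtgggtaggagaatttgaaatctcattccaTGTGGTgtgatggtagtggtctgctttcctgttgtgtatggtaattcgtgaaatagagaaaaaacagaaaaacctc
Cd84: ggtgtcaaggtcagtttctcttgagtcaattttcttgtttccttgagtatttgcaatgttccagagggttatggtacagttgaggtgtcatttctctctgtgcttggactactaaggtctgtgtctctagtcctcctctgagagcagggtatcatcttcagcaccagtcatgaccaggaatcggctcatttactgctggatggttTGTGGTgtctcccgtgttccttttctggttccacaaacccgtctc
The word TGTGGT or its reverse complement ACCACA occurred once in the windows of Cd48 and Cd84 and not in that of Cd244a, and it is found in 14.05% of all 32851 windows of this length. The other words searched on both strands were AGATAA for GATA factors, GGAAGT for ETS factors and the TATA word TATAAA, found in 9.99%, 19.7% and 12.4% of windows. None of the 3 printed windows held one of these. A promoter window was held for 37 of the 57 CD genes. The RUNX word was present for 4 of 17 detected and 4 of 20 other CD genes, against 15.9% of all genes, and the GATA word for 3 of 17 (Cd44, Cd101 and Cd200) and 4 of 20, against 11.4%. The ETS word was present for 3 of 17 and 7 of 20, against 22.2% of all genes, and the TATA word for 0 of 17 and 2 of 20, against 14.3%. A match is a description of the letters and not a binding site.

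**Figure D3:**
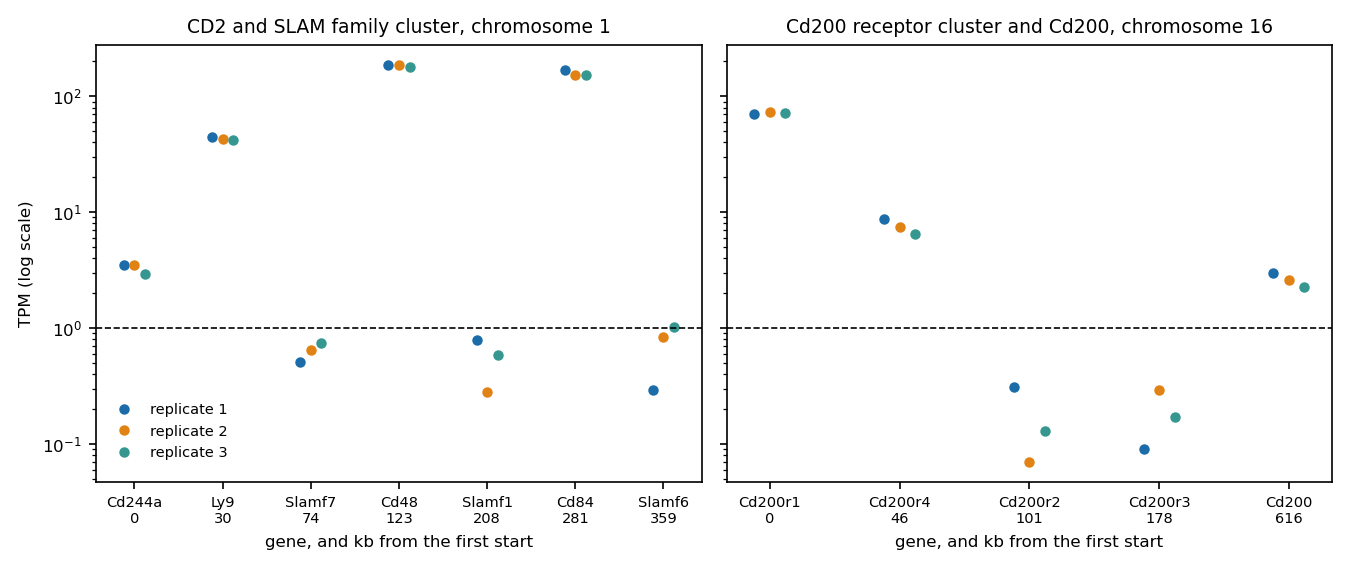
TPM (log scale) of the SLAM family genes on chromosome 1 (left) and of the Cd200 receptor genes with Cd200 on chromosome 16 (right), in chromosomal order, with the distance of each start from the start of the leftmost gene in kb and 1 point per library. The dashed line is 1 TPM. Cd48 and Cd84 lie above 150 TPM between neighbours below or near 1 TPM, and Cd200r1 lies above 70 TPM while its relatives lie below 10 TPM.

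Among costimulatory and inhibitory receptors and their ligands 11 of 14 genes were detected, 6 of them with means from 20 TPM upwards. Cd47, the signal that restrains phagocytosis by binding SIRPα, was at 178, 178 and 177 TPM (178 ± 0.655), the smallest relative spread of the set. Its receptor gene Sirpa, a gene of myeloid cells, was at 1.5 ± 0.382. Cd226, which encodes the activating receptor DNAM-1, was at 131, 129.8 and 121 TPM (127 ± 5.59) on chromosome 18 from 89176954 to 89272232. The receptors that share its ligands were present beside it, with the inhibitory receptor gene Tigit at 229 ± 15.0 and Cd96 at 177 ± 12.6. The ligand genes Pvr and Nectin2 were at 1.69 ± 0.272 and 0.25 ± 0.0819 TPM. Cd83, an activation marker known from dendritic cells and lymphocytes, stood at 42.8, 40.2 and 41.8 TPM. Cd27, a TNF receptor family member, was at 40.5, 41.6 and 39.3 TPM, a range that overlaps that of Cd83. Cd70, the ligand of CD27, was at 3.01, 2.39 and 1.73 TPM from 13 to 23 reads per library. Of the adaptors of CD27, Traf2 was at 60.3 ± 2.11 and Traf5 at 4.57 ± 0.57. Cd101, an immunoglobulin superfamily molecule with inhibitory function in T cells, was at 33.9, 32.0 and 33.0 TPM, below Cd27 in every library.

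The lower genes of this group included well-known T cell molecules. Cd28, the principal costimulatory receptor of T cells, stood at 1.36, 1.08 and 1.56 TPM from 44 to 63 reads per library, just above the detection level. Cd160, a receptor of natural killer cells and intestinal lymphocytes that binds HVEM, was at 4.15 ± 0.748 TPM, while Tnfrsf14, which encodes HVEM, was at 39.7 ± 0.97. Cd40, the receptor of B cells and antigen-presenting cells, had 4 to 6 reads per library. Over the whole list of ligands and counter-receptors drawn up for the CD genes, 15 of 28 listed genes were detected, and of the signalling adaptors 23 of 24 were, beside 67.3% of all genes.

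The inhibitory receptor CD200R and its relatives were also unequal along their cluster on chromosome 16. Cd200r1, which encodes the receptor for CD200 (44765736 to 44794977), was at 70.6, 73.3 and 72.3 TPM (72.1 ± 1.35). Cd200r4, an activating relative that starts 45.9 kb away, was at 8.65, 7.42 and 6.45 TPM. Its range lay far below that of Cd200r1. Cd200r2 and Cd200r3, the latter known from basophils and mast cells, were at 0.170 ± 0.125 and 0.183 ± 0.101 TPM from 1 to 5.16 estimated reads per library, beside 1 of 3 listed mast cell and basophil genes detected. Of the 50-base words of Cd200r4 and Cd200r1 transcripts, 4.94% and 1.16% also occur in another gene. These are exact matches only, and how many reads the genes shared was not tested. Cd200, the ligand, lies 616 kb from Cd200r1 and stood at 2.98, 2.61 and 2.28 TPM. The adaptors of CD200R were detected, with Dok2 at 108 ± 3.14, Dok1 at 62.1 ± 1.002 and Rasa1 at 39.9 ± 1.36 TPM.

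T cell coreceptors and lineage molecules were near 0 with the exception of Cd7. Of 6 genes 1 was detected. Cd7, an early marker of lymphoid progenitors, T and natural killer cells, was at 5.64, 5.08 and 6.14 TPM from 48 to 58 reads per library. Of its exon bases 10.8% are also covered by an antisense gene in GENCODE M21, and the sources used here do not state whether the libraries keep strand. Cd4, the coreceptor of helper T cells, had 1 or 2 reads per library (0.0533 ± 0.0208 TPM). Cd5 and Cd6, paired scavenger-type receptors of T cells, had 1 to 3 and 4 to 8 reads. Cd8a was at 0.79, 0.5 and 1.14 TPM, and its partner Cd8b1 was at 0, 0.17 and 0.51 TPM from 0, 2.35 and 6.95 estimated reads, and both genes were highest in replicate 3. Of the 5 listed T cell markers Cd3e was highest in replicate 3, at 6.09, 6.48 and 8.99 TPM, while Cd3d, Themis, Lef1 and Bcl11b and the sum of the list were highest in replicate 2.

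B cell molecules included 2 detected genes, Cd72 and Cd79b, beside a B cell marker list at a sum near 1 TPM. Cd72, an inhibitory coreceptor of B cells that is also found on other leukocytes, stood at 74.3, 71.4 and 74.5 TPM (73.4 ± 1.72), in the same range as Cd200r1. Of the exon bases of Cd72 41.6% are also covered by Tesk1 on the opposite strand, a kinase gene at 42.6 TPM, so the reads of both cannot be told apart with certainty without strand. Ptpn6, which encodes the phosphatase SHP-1 that CD72 recruits, was at 66.4 ± 1.06 TPM. Cd79b, a signalling chain of the B cell receptor, was at 22.2, 19.9 and 23.5 TPM, whereas its obligate partner Cd79a was at 1.52, 1.99 and 0.990. The 3 libraries of these 2 genes lay far apart, and replicate 3 had the most Cd79b and the least Cd79a. Cd180, a relative of Toll-like receptors on B cells, had 3 to 5 reads per library, and Cd22, an inhibitory lectin of B cells, was at 0.673 ± 0.272 TPM. Ms4a1, which encodes CD20, was at 0.217 ± 0.154 TPM and Pax5 at 0.0667 ± 0.0723.

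Complement regulators were low. Of 5 genes 1 was detected, Cd46 at 2.69, 2.94 and 2.67 TPM, a cofactor for complement cleavage that in mice is mainly known from the testis. Of its exon bases 14.2% are covered by a noncoding gene on the opposite strand. Cd55, the decay-accelerating factor, was at 0.31, 0.29 and 0.33 TPM from 17.1 to 21.8 reads per library. Cd59a, an inhibitor of the membrane attack complex, was at 0.53, 0.52 and 0.6 TPM from 11.5 to 11.99 reads. Their relatives Cd55b and Cd59b had no reads in replicates 1 and 2 and 1.51 and 1.16 estimated reads in replicate 3, where they stood at 0.11 and 0.07 TPM. Of the words of Cd55b and Cd59b 23.0% and 14.1% are shared with other genes, so even these reads are uncertain. A count of 0 allows up to 3 reads, which is 0.15 CPM in each library, and this covers counting error only. Adgre5, which encodes the CD97 receptor that binds CD55, was by contrast at 286 ± 8.50 TPM.

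A pair of genes stood alone in their groups. Cd1d1, which presents lipids to natural killer T cells, was at 18.2, 17.7 and 17.6 TPM (17.8 ± 0.307). Of its words 19.1% are shared, most with Cd1d2, which was not analysed here. Cd320, the receptor that takes up vitamin B12 bound to transcobalamin, was at 7.78, 9.05 and 7.90 TPM.

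Of 11 myeloid pattern recognition and scavenger receptors 2 were detected, and the group summed to 16.5, 16.2 and 20.5 TPM in replicates 1 to 3. Cd209c, a C-type lectin of the DC-SIGN family, was at 9.16, 8.70 and 10.4 TPM, with 11.6% of its words shared with other genes. Cd68, the lysosomal glycoprotein of macrophages, was at 4.15, 4.30 and 5.98 TPM, highest in replicate 3 and 1.42 times as high there as in the mean of the other libraries. The summed macrophage and monocyte list was 1.25 times as high in replicate 3 by the same measure. Most of that rise came from Chil3, at 338, 327 and 461 TPM. Of the 15 genes of the list 11 were highest in replicate 3, beside 36.9% of all listed genes. Among the 11 were Chil3 (1.39 times), Lyz2 (1.33) and C1qb (1.40), while Fcgr1, Ms4a7, Ctss and Clec4n were highest elsewhere. The part of such cells in the Cd68 level was not tested. Cd14, the coreceptor for bacterial lipopolysaccharide, was at 0.640, 0.850 and 1.05 TPM from 10, 13 and 16 reads. Its ratio of 1.41 for replicate 3 by the same measure rests on these few reads. Cd163l1, a scavenger receptor known from gamma-delta T cells, was at 1.04, 0.8 and 0.98 TPM, close to the detection level in every library. Cd300a and Cd300c2, paired receptors for membrane lipids, were at 0.550 ± 0.354 and 0.547 ± 0.494 TPM, and Cd300c2 had 0, 10 and 7 reads. Cd302, Cd5l, Cd163, Cd33 and Cd177 had at most 6 reads in any library.

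Pairs of CD genes that encode partners, relatives or alternatives were then compared within libraries. Cd44 exceeded Cd24a by 5.85 ± 0.14 on the log2(TPM + 1) scale, Cd48 exceeded Cd244a by 5.42 ± 0.0892, and Cd2 lay below Cd48 by a difference of -5.44 ± 0.293. The receptors exceeded their ligands, Cd200r1 over Cd200 by 4.34 ± 0.158 and Cd27 over Cd70 by 3.63 ± 0.255. Cd79b exceeded Cd79a by 3.21 ± 0.409, and Cd28 differed from Cd27 by -4.16 ± 0.19. The remaining pairs, Cd8a and Cd8b1, Cd59a and Cd59b, and Cd55 and Cd55b, differed by 0.57 ± 0.247, 0.60 ± 0.017 and 0.34 ± 0.0688, with every gene near or below 1 TPM, so no ratio is given for them. Each of the 10 differences had the same sign in 3 of 3 libraries and was larger than its SD. Cd55b and Cd59b were at 0 in replicates 1 and 2, so no difference of the other sign was possible there. A two-sided exact permutation test that flips the signs of the 3 library differences gave p = 0.25 for each, the smallest it can give, and 0.25 after Benjamini-Hochberg adjustment over the 10 pairs.

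**Figure D4:**
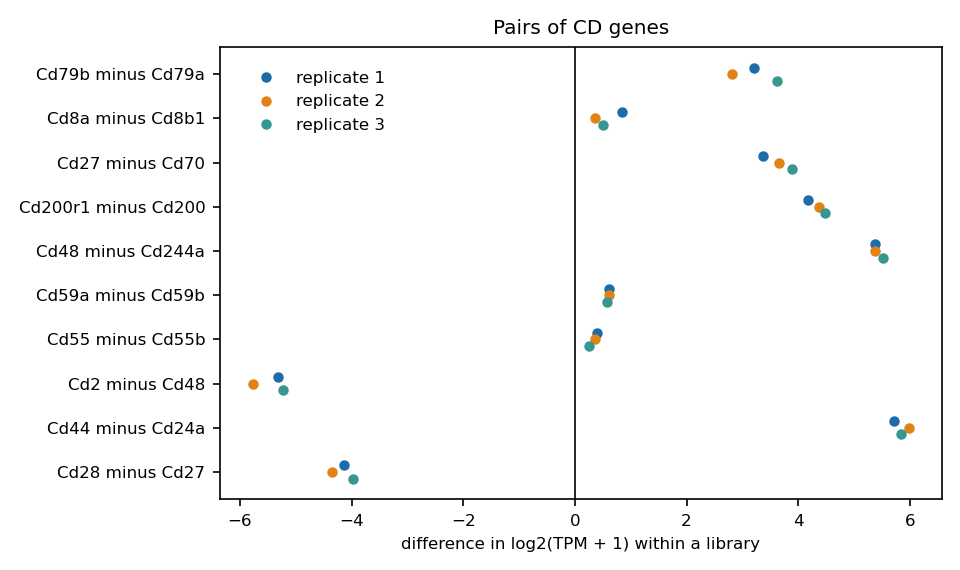
Difference in log2(TPM + 1) between the genes of 10 pairs (x axis), with 1 point per library. The 3 points of each pair lie on the same side of 0, and the differences reach 5.85 for Cd44 minus Cd24a and -5.44 for Cd2 minus Cd48.

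The spread between libraries was small for the high genes. The coefficient of variation of the 14 genes with a mean of at least 20 TPM ranged from 0.368% for Cd47 to 9.77% for Cd99l2, with a median of 3.203%, beside 3.58% for the 6536 genes of all kinds at that level. The coefficient exceeded that of counting error alone for 31 of the 57 genes, beside 56.2% of all listed genes. The highest value was in replicate 1 for 25 genes, in replicate 2 for 13 and in replicate 3 for 19, beside 29.5%, 33.7% and 36.9% of all genes. Among costimulatory and inhibitory genes 10 of 14 were highest in replicate 1, some of them by little, as Cd47 at 178.43, 177.79 and 177.12 TPM. Smaller role groups also had more highest values in 1 library. Of 4 CD2 and SLAM genes 3 were highest in replicate 1, Cd48 and Cd244a by little. Of 5 complement regulators 4 were highest in replicate 3, all of them below 1 TPM in each library. Cd55b and Cd59b rested on 1.51 and 1.16 estimated reads there, and Cd55 and Cd59a were highest by little. Replicate 3 was compared with the mean of replicates 1 and 2 for the 36 CD genes with a mean of at least 10 reads. Of these, 8 differed by more than 2 SD of counting error, beside 17.9% of the 11967 listed genes with as many reads. In replicate 3 Cd164, Cd99l2, Cd68, Cd8a and Cd22 lay above that mean, and Cd84, Cd226 and Cd200r4 lay below it. Such a gap need not come from replicate 3 itself. Cd84 was higher in replicate 3 than in replicate 2, with replicate 1 the highest. For Cd99l2 replicate 2 was the lowest, and for Cd164 replicate 1 was. These 8 genes are named after their values were seen. The sources used here do not state whether amplified copies of a molecule were removed. Where they are counted as reads, counting error understates the error of the assay.

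**Figure D5:**
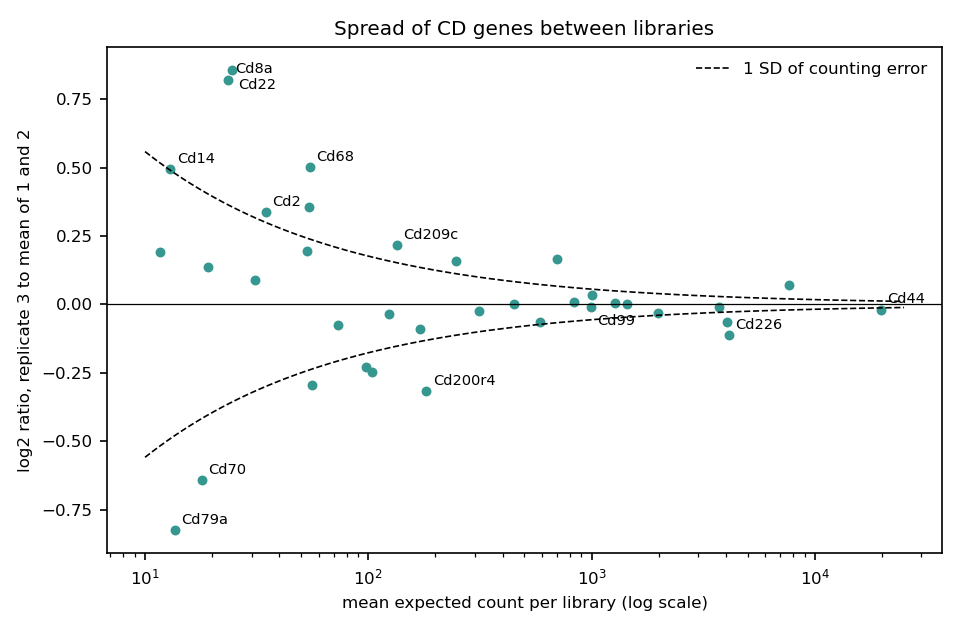
Log2 ratio of TPM in replicate 3 to the mean of replicates 1 and 2 (y axis) against the mean estimated read count (x axis, log scale) for the 36 CD genes with at least 10 reads on average, 1 point per gene. Dashed lines give 1 SD of counting error, beyond which 19 of the 36 genes lie, beside 48.6% of all genes with as many reads, and the genes farthest above 0 are Cd8a, Cd22 and Cd68.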

How the data were processed

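Messenger RNA of sorted lung ILC2s was sequenced in 3 libraries of 1 group, numbered as in their titles. Bowtie2, RSEM 1.3.1 and the build GRCm38.p6 are named in the submitters' processing notes, with neither order nor settings. Per the file headers, the authors deposited read counts (expected counts, not all whole), TPM, FPKM and normalised read counts, a depth-scaled signal. The normalised counts equalled the rounded-up expected count times 1.00144, 1 and 0.997 in replicates 1 to 3 (100% of values within 1e-06) and were not used further.

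Levels are TPM. The pseudocount of 1 in log2(TPM + 1) shrinks differences between low genes. CPM was computed from expected counts, and implied length from counts, FPKM and total counts. All 57 CD gene IDs matched RefSeq (GRCm38.p6), and shared 50-base words and exon overlaps were taken from GENCODE M21 (GRCm38), which need not be the authors' annotation. All CD genes but 1, which is not reported here, are named: values per library are given for a mean of at least 20 TPM and for 10 of 11 fixed pairs (Cd1d2 was not analysed here), and otherwise means or ranges. Gene lists and members were chosen with earlier results of these data known. Code for levels and calls was tested on simulated data. Computations used Python 3.11.15, pandas 2.3.3 and scipy 1.17.1. Alternatives were the pseudocount, detection level, unit, a filter on low values and leaving out each library.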

Additional observations from a re-analysis of the deposited data

How the results depend on the processing

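The number of detected CD genes was 34 at 0.5 TPM, 21 at 5 TPM, 27 with FPKM, 29 with CPM and 29 to 30 without 1 replicate. With CPM the set was not the same, since Cd70 fell out, at a mean of 0.903 CPM, and Cd163l1 came in, at 1.55. Leaving out 8 genes whose reads or model are uncertain (Cd1d1, Cd209c, Cd46, Cd55b, Cd59b, Cd7, Cd72 and Cd99), an alternative chosen after seeing the data, left 23 of 49 detected and a median log2 level of 1.01 in place of 1.42. That median was 0.83 with a pseudocount of 0.1, 0.85 with FPKM and 3.81 over genes with a mean of at least 1 TPM. For all listed genes it was 3.60, and 3.49, 2.67, 4.83 and, with CPM, 3.92 under these settings. The share of all genes detected was 71.0% at 0.5 TPM, 57.6% at 5 TPM, 63.5% with FPKM, 68.6% with CPM and 67.6% to 67.7% without 1 replicate. With genes below a mean of 1 TPM left out, 14, 7 and 9 CD genes were highest in replicates 1, 2 and 3, since fewer genes were counted. Each of the 10 pair differences kept its sign under every alternative run (pseudocount, FPKM, CPM and each replicate left out). Only CPM could have changed a sign. A pseudocount or FPKM keeps the order of genes within a library, and for each pair every library already had the same sign. No paired comparison between groups of samples was possible because the labels give 1 group.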
